A study of Mus musculus with 53 samples.

Results

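WGD- tumours of the murine mammary tumour line TA3Hauschka, collected from A/J mice at day 14 or at day 8, were compared by bulk RNA sequencing. The comparison uses 6 of the 53 libraries of the series, chosen by their titles: 3 from day 14 and 3 from day 8. WGD stands for whole genome doubling, and WGD- names the form of the line without it. The hosts were female A/J mice, 6 weeks old at injection, and the cells went with Matrigel into the inguinal mammary fat pad. A/J is an inbred strain with a working immune system, and the labels name no drug or antibody for the day 14 or the day 8 group. The same experiment holds 3 WGD+ libraries from day 14 and 3 from day 8, from the form with doubling, in the same host and site. The labels do not say whether the libraries of a group came from separate mice, or whether a form is a single clone, so a p-value reflects variation among these libraries, which may be technical.

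Gene levels are given as log2(CPM + 1), where CPM is a gene's reads scaled by library size, and a difference is the day 14 mean minus the day 8 mean on that scale. On it a difference is smaller than the log2 ratio of the CPM when a gene is low. The WGD- libraries held 12217113, 7615727 and 8971654 assigned reads at day 14, and 9485454, 11335588 and 12088233 at day 8. A gene was called when its adjusted p in limma, over the 13478 genes tested, was under 0.05. Epcam, an epithelial adhesion protein, lay between 7.78 and 8.29 at day 14 and between 7.26 and 7.99 at day 8, and the keratin gene Krt8 between 9.35 and 9.78 at day 14 and between 8.85 and 9.86 at day 8. Epithelial transcripts were thus present in every library, and the B cell gene Ms4a1 had no read in any of the 6.

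The genotype label of day 8 replicate 3 is in doubt, and the counts and main genes are given with and without it. Lpar3, a lysophosphatidic acid receptor gene chosen as higher in WGD- tumours in the other experiments of the series, had 3.57, 3.74 and 3.77 at day 14, against 4.01, 3.96 and 1.06 at day 8 in WGD- tumours. In the 3 WGD+ day 14 libraries it averaged 0.83 and in the 3 from WGD+ day 8 it averaged 0.55. The integrin gene Itga7 had 6.62, 6.13 and 6.84 at day 14, against 7.23, 6.83 and 4.29 at day 8. Day 8 replicate 3 was the low one for both genes, at the level of the WGD+ libraries. Slc7a11, the cystine transporter gene, chosen as higher in WGD+ tumours in those experiments, had 4.34, 4.43 and 4.63 at day 14, against 4.07, 5.19 and 7.06 at day 8. The mean of 6 genes higher in WGD+ minus that of 6 higher in WGD- was 0.774 to 1.59 at day 14, 1.62, 0.297 and 4.14 at day 8, and 2.67 to 4.67 in the 6 WGD+ libraries. Across genes, day 8 replicate 3 correlated best with a WGD+ library of day 14, at 0.985, and with its own group at best at 0.962. Day 14 replicate 3 also correlated best with that WGD+ library, at 0.973, and with its own group at best at 0.958, while its 12-gene value of 1.59 lay with the other WGD- libraries.

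**Figure D1:**
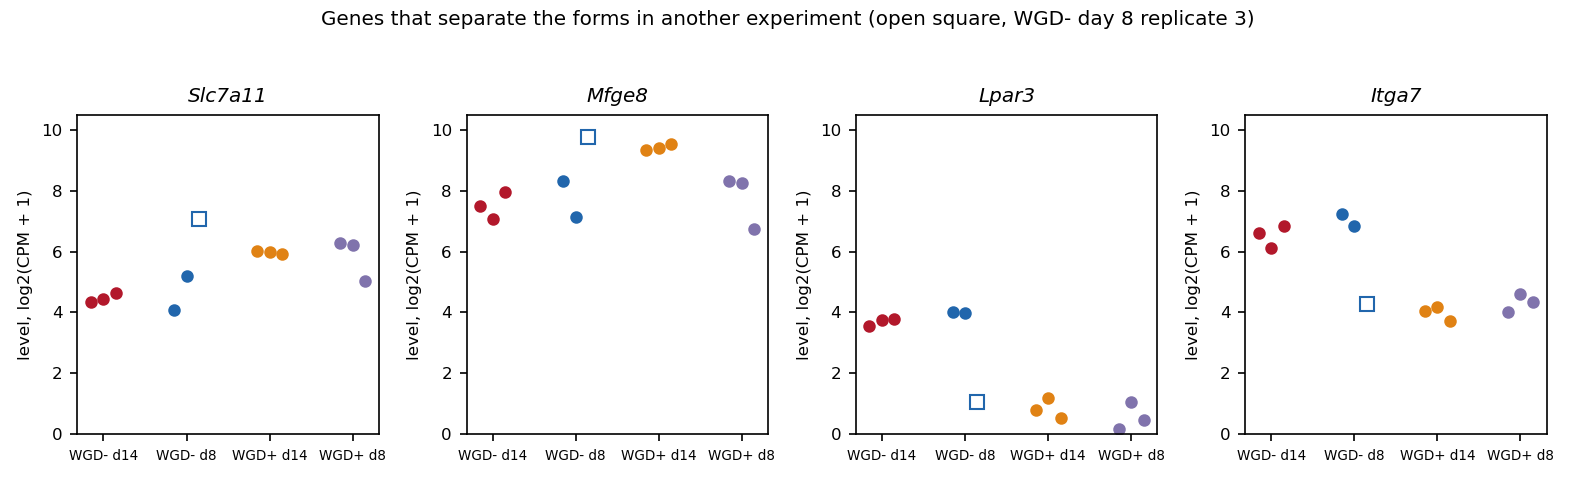
Levels of 4 genes chosen as differing between the forms in the other experiments of the series, in log2(CPM + 1). Points are the libraries of the WGD- day 14, WGD- day 8, WGD+ day 14 and WGD+ day 8 groups (3 a group). For Slc7a11 and Mfge8 the forms overlap at day 8, Mfge8 being at 8.33, 7.13 and 9.78 in WGD- and at 8.33, 8.25 and 6.75 in WGD+. The open square, WGD- day 8 replicate 3, lies with the WGD+ libraries for Lpar3 (1.06) and Itga7 (4.29).

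The day 8 libraries also differed in adipocyte and muscle transcripts. Day 8 replicate 1 had a mean adipocyte list level of 6.98, against 2.55 to 2.91 in the other day 8 libraries and 2.30 to 2.81 at day 14. Its correlation with any other library reached at most 0.918. It also had the highest level of the ductal keratin gene Krt19, 8.17 against at most 4.59 in the other 5, and of the claudin gene Cldn3, 5.09 against at most 0.58. Day 8 replicate 2 had a mean skeletal muscle list level of 7.22, against 2.97 to 3.65 in the 3 day 14 libraries. At day 14, replicate 3 had the lowest levels of the T cell, cytotoxic lymphocyte and macrophage lists.

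Interferon-gamma is a cytokine released by activated T cells and natural killer cells. It switches on guanylate-binding proteins and other GTPases of cell-autonomous defence, the chemokines that draw T cells, and the machinery that loads peptides onto MHC class I. In tumours this response is known for making cancer cells visible to CD8 T cells, and also for raising PD-L1, a ligand that restrains them.

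The promoters of the genes at the centre of this comparison are shown because their members moved together. The motifs searched were the gamma-activated sequence (GAS), as TTCNNNGAA, and the interferon-stimulated response element (ISRE), which interferon regulatory factors bind, as GAAA, 2 bases of any kind and GAAA again, both on either strand. The sequences are the 250 bases before the RefSeq start of each gene on GRCm38.p6, read 5′ to 3′ on the gene's strand, with matches of either motif in capitals.
Gbp5, chr3:142496684-142496933, plus strand: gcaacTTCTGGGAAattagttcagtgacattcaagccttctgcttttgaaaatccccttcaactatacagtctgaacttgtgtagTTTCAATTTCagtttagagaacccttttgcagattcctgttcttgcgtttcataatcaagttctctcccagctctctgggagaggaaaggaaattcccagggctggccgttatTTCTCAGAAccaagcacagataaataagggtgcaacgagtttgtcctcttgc
Gbp7, chr3:142530086-142530335, plus strand: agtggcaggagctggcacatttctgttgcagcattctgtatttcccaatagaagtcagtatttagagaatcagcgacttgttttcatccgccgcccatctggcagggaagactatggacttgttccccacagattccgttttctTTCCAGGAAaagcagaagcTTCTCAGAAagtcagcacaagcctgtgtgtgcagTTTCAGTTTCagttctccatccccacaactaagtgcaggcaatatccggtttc
Gbp3, chr3:142559794-142560043, plus strand: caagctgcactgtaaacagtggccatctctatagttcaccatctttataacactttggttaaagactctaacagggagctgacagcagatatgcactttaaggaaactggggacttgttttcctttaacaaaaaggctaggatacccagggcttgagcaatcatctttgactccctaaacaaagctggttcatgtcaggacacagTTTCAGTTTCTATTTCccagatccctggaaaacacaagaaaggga
Irgm1, chr11:48871421-48871670, minus strand: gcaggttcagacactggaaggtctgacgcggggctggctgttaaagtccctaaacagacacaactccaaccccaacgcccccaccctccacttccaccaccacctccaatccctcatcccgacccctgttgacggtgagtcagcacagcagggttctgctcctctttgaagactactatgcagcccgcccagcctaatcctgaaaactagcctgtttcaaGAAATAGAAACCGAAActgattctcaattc
Irf1, chr11:53769764-53770013, plus strand: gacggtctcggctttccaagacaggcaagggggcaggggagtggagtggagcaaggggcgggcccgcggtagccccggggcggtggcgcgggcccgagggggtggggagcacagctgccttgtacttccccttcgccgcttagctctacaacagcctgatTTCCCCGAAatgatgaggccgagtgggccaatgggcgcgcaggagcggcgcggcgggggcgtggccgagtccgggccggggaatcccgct
Cxcl9, chr5:92328080-92328329, minus strand: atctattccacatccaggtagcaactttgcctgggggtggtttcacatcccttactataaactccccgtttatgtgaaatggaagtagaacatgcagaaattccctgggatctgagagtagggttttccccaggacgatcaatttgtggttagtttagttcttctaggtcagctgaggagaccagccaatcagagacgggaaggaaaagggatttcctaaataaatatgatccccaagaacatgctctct
Gbp5 and Gbp7 each held 2 GAS matches and 1 ISRE match, and Irf1 held 1 GAS match. Gbp3 and Irgm1 each held 2 ISRE matches that overlap each other. No GAS match overlapped an ISRE match in these windows, and these letters are not in the Cxcl9 window. Of the 19 genes of the interferon-gamma list, 12 had a window of 300 bases in the RefSeq table, of which 10 held an ISRE match (83.3%) and 5 a GAS match (41.7%). Among the 82 genes called higher with a window, 20 held an ISRE match (24.4%) and 19 a GAS match (23.2%). The shares over the 10541 tested genes with a window were 3.17% for ISRE and 6.78% for GAS, and over all 27025 windows 3.49% and 8.47%. A match is a description of the letters and does not show binding.

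Day 14 tumours differed from day 8 tumours almost wholly by genes that were higher. Of 13478 genes tested, 111 were called higher at day 14 (0.824%) and 3 lower (0.0223%), which is 114 in all (0.846%). For each of the 114, the 3 day 14 levels and the 3 day 8 levels did not overlap. Groups also did not overlap, higher at day 14, for 7.73% of all genes tested, and lower for 5.96%. The 7 lists on interferon, antigen presentation and lymphocytes held 39 of the 114, and 71 of the 114 were on no list. These lists were chosen with earlier results known, and some of their called members passed the low-level filter only through WGD- day 14. The 39 is therefore a description. The median difference over all genes was -0.01.

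Without day 8 replicate 3, 65 genes were called higher (0.482%) and 5 lower (0.0371%). Of the 114, 55 were called again. Since the groups of all 114 do not overlap, their direction could not turn when a library was left out. The count also depended on other libraries. It was 14 without day 8 replicate 2, 16 without day 14 replicate 1, 31 without day 14 replicate 2 and 228 without day 14 replicate 3. Calls that held whichever of the 6 libraries was left out numbered 13, among them Gbp3, Gbp4, Gbp5, Gbp7, Gbp9, Gbp10, Irgm1, Tgtp2, Acod1, Ifi44, Gzmb and Mir6381. A further 37 of the 114 were called in at most 1 of the 6 leave-outs, and among the genes described here these were Clec7a, Cd274, Tap1, Prf1, Ccl4, Cd3d, Cd3e, B2m, Tigit, Ly6c2, Tubb3, Gzmg and Hdac7. Of the 114, 16 passed the filter on low levels (above 1 CPM in 3 libraries) only through the WGD- day 14 libraries. The filter itself thus favoured a difference in them, and their calls are no support of their own. Mir6381 lies inside Gbp2 on the other strand, and whether counting used strand is not given in the sources used here, so its reads cannot be told apart from those of Gbp2.

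**Figure D2:**
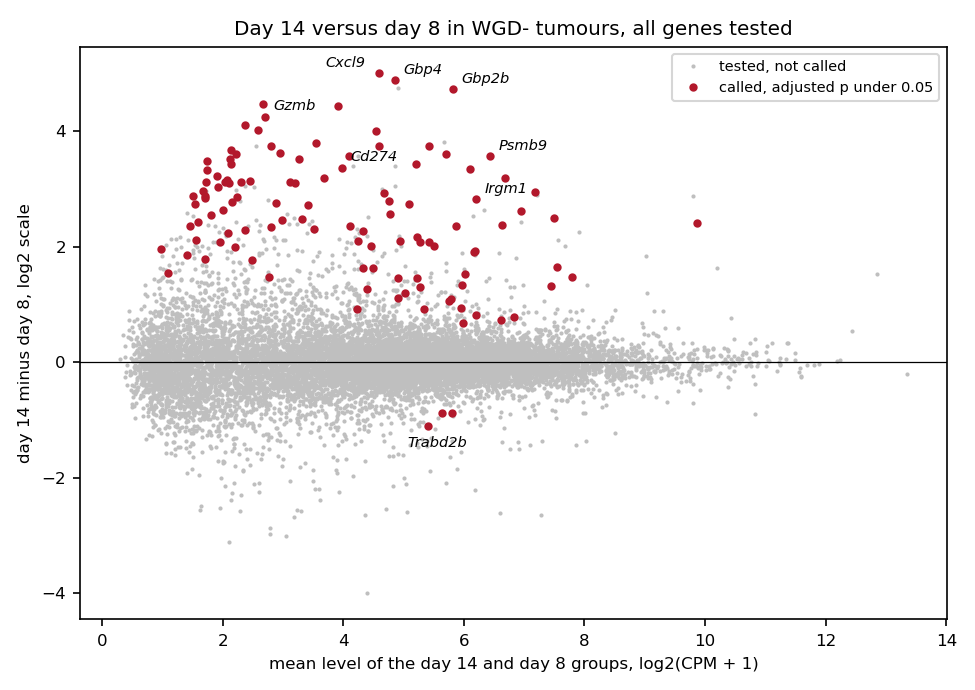
Difference between day 14 and day 8 (y axis, log2 scale) against the mean level of the day 14 and day 8 groups (x axis, log2(CPM + 1)) for the 13478 genes tested in WGD- tumours. The 111 genes called higher lie above 0 and reach 5.01 for Cxcl9, and the 3 called lower lie between -1.11 (Trabd2b) and -0.88 (Hdac7).

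Interferon-gamma response genes were the largest group. Of 18 list members tested, 13 were called higher and none lower, with a median difference of 3.37, and 12 were called without day 8 replicate 3, with a median of 3.51. Over all genes tested, 0.824% were called higher, and 0.482% without that library. The mean level of the list was 6.96, 6.37 and 5.84 in the 3 day 14 libraries, against 3.49, 2.79 and 3.34 at day 8. The WGD- groups did not overlap, and day 14 replicate 1 was the highest. In the same libraries the T cell list had mean levels of 3.89, 3.33 and 1.73 at day 14, against 0.42, 0.52 and 0.84 at day 8. The part of T cell content in the interferon-gamma values was not tested, and in bulk tumours fewer cells of a type and less RNA per cell cannot be told apart.

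Guanylate-binding proteins, GTPases that attack the membranes of intracellular parasites and bacteria, were called almost throughout. Of the 10 members tested, 9 were called higher, with and without day 8 replicate 3, and the differences of all 10 ran from 2.98 to 4.88. The shares called higher over all genes tested were 0.824% with that library and 0.482% without it. Of the 10, 6 named above held with any library left out. Gbp8 was the member not called, at 2.98 (adjusted p = 0.0563). Most lie in a cluster on chromosome 3, with Gbp5 at chr3:142493978-142522344 and Gbp2b at chr3:142594847-142619179, or in a cluster on chromosome 5, with Gbp4 at chr5:105115767-105139586 and Gbp10 at chr5:105215699-105239533 (GENCODE M21, mm10). These genes resemble each other and Gbp4 overlaps Gbp9 on the same strand, so the split of reads between members is uncertain.

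Gbp5, which also promotes inflammasome assembly, had 6.87, 6.20 and 5.29 at day 14, against 1.27, 1.49 and 2.30 at day 8. All day 14 libraries were far above all day 8 libraries, and day 8 replicate 3 was the highest of its group. The difference was 4.43 (SE 0.51, adjusted p = 0.00352), and 4.74 without that library (adjusted p = 0.0183). Gbp10 had 564, 206 and 178 reads at day 14, against 1, 3 and 9 at day 8, a difference of 4.48 (SE 0.49, adjusted p = 0.00352). Gbp2b had 8.90, 7.95 and 7.72 at day 14, against 2.89, 3.36 and 4.14 at day 8. Its difference of 4.73 (SE 0.65, adjusted p = 0.00977) was 5.07 without day 8 replicate 3. Gbp4 had 8.31, 7.24 and 6.36 at day 14, against 2.42, 1.87 and 2.98 at day 8, and differed by 4.88 (SE 0.61, adjusted p = 0.00621). In Gbp4 as in Gbp5, day 14 replicate 3 was the lowest of its group and still well above day 8.

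Gbp3 and Gbp7, whose promoters stand above with ISRE matches, were close between libraries at day 14. Gbp7 had 8.09, 7.69 and 7.54 at day 14, against 4.78, 3.83 and 4.70 at day 8. Gbp3 had 7.26, 6.84 and 6.64 at day 14, against 3.78, 2.96 and 3.72 at day 8. The differences were 3.34 for Gbp7 and 3.43 for Gbp3, both with an adjusted p of 0.00621, or 0.0209 without day 8 replicate 3. The SD between libraries was 0.28 at day 14 and 0.53 at day 8 for Gbp7, and 0.32 and 0.46 for Gbp3.

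The interferon-inducible GTPases that act beside the guanylate-binding proteins in cell-autonomous immunity behaved alike. Of 6 tested, 5 were called higher and 4 without day 8 replicate 3, against 0.824% and 0.482% of all genes tested. Irgm1, at chr11:48861968-48871683, had 7.98, 7.56 and 7.31 at day 14, against 5.03, 4.55 and 4.78 at day 8. Its difference of 2.83 (SE 0.32, adjusted p = 0.00352) was 2.82 without that library. Ifi47 had 7.60, 6.28 and 5.77 at day 14, against 3.20, 1.97 and 2.46 at day 8, a difference of 4.0 (SE 0.59, adjusted p = 0.0115). Igtp had 7.99, 6.88 and 7.02 at day 14, against 3.71, 2.98 and 3.97 at day 8. Its difference of 3.75 (SE 0.62, adjusted p = 0.0205) was 3.95 without day 8 replicate 3 (adjusted p = 0.0470). Tgtp2 differed by 3.63 (adjusted p = 0.00621) and held with any library left out. Iigp1 was not called, at 3.81 (adjusted p = 0.0520). Igtp and Irgm2 overlap on 1 strand of chromosome 11, and Ifi47 and Tgtp2 lie within the span annotated as Olfr56, so reads may be shared between them.

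The chemokine Cxcl9, which attracts activated T cells and is driven by interferon-gamma, had the largest difference of all genes called. It had 8.02, 7.23 and 6.03 at day 14, against 2.22, 1.65 and 2.40 at day 8. In reads this was 3131, 1161 and 593 at day 14, against 36, 25 and 51 at day 8. The difference was 5.01 (SE 0.65, adjusted p = 0.00736), and 5.16 without day 8 replicate 3 (adjusted p = 0.0256). Without day 8 replicate 2 Cxcl9 was not called (adjusted p = 0.0534). Cxcl10, a chemokine for the same receptor, differed by 3.39 with an adjusted p of 0.0684 and was not called.

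A regulator of the response was higher as well. Irf1, a transcription factor induced by interferon-gamma, had 8.32, 7.82 and 7.33 at day 14, against 5.27, 5.18 and 5.89 at day 8. It differed by 2.37 (SE 0.39, adjusted p = 0.0196), and by 2.59 without day 8 replicate 3 (adjusted p = 0.0343). Socs1, the inhibitor that restrains cytokine signalling, reached the threshold without that library (2.56, adjusted p = 0.0495) and not with it (2.19, adjusted p = 0.0560). Nos2, the inducible nitric oxide synthase gene, differed by 2.18 (adjusted p = 0.0609), and Ido1, the tryptophan-degrading enzyme gene, by 1.04 (adjusted p = 0.705).

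**Figure D3:**
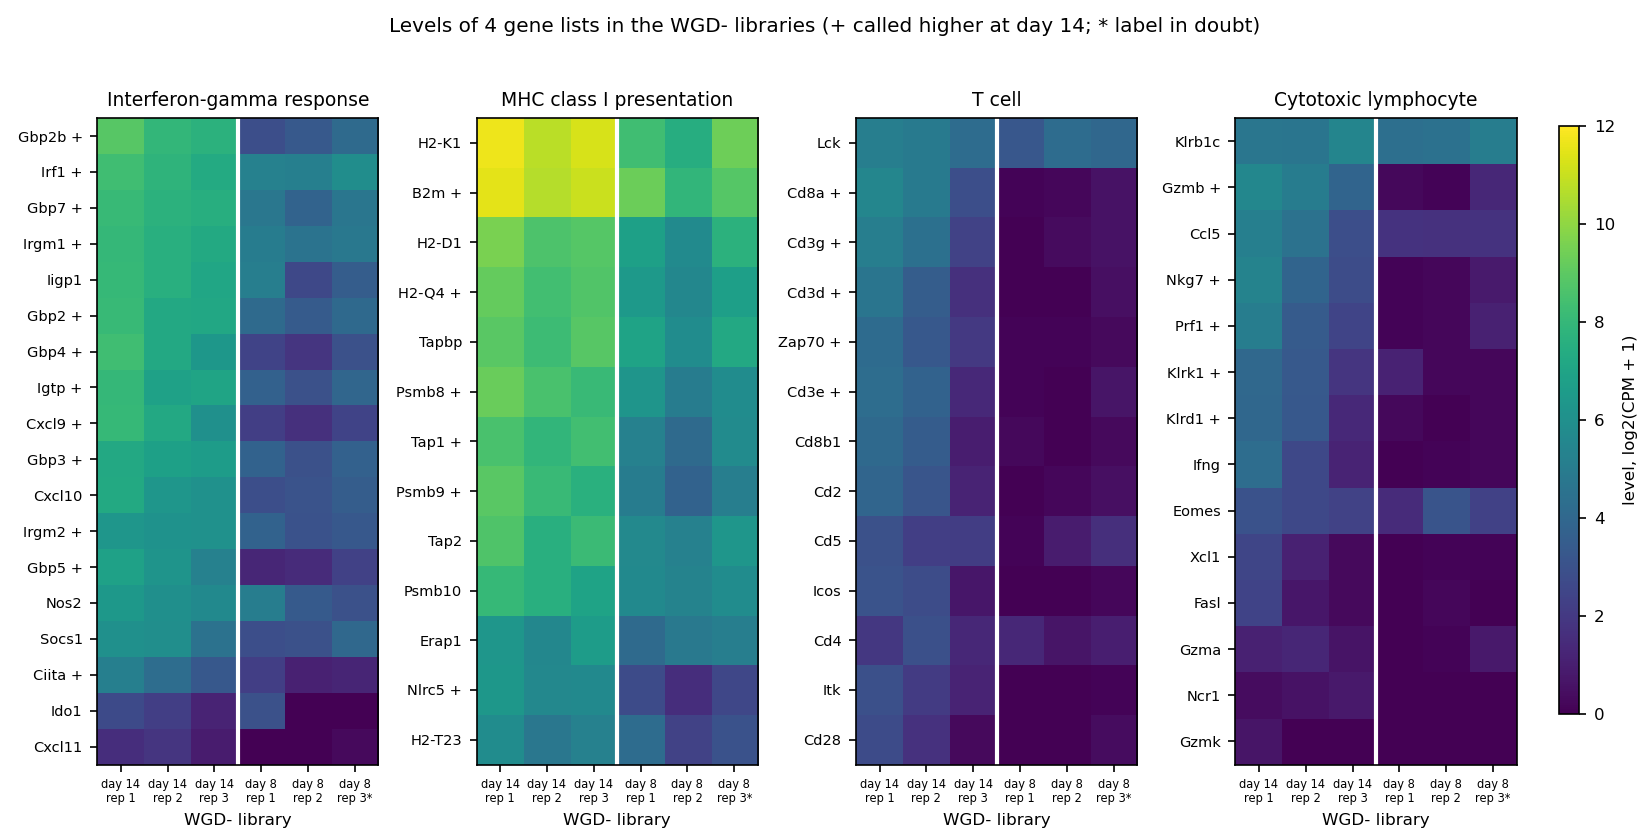
Levels (log2(CPM + 1), colour) of genes of 4 lists in the 3 WGD- day 14 and the 3 WGD- day 8 libraries, with a + on genes called higher at day 14 and a * on the library whose label is in doubt. Values are not scaled by gene length, so colours compare libraries for 1 gene. Cd8a is at 2.87 to 5.53 at day 14 and at 0.14 to 0.59 at day 8.

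Genes of several steps of MHC class I presentation rose. Of 13 list members tested, 6 were called higher, against 0.824% of all genes tested, and none lower. The median difference over the 13 was 2.43. All 13 had groups that did not overlap, higher at day 14, against 7.73% of all genes tested. Without day 8 replicate 3, 5 were called and the median was 2.74. Nlrc5, the transactivator of MHC class I genes, had 6.36, 5.60 and 5.68 at day 14, against 2.76, 1.57 and 2.57 at day 8, a difference of 3.58 (SE 0.52, adjusted p = 0.0106). Psmb9, a catalytic subunit of the immunoproteasome, had 8.94, 8.13 and 7.60 at day 14, against 5.04, 3.79 and 5.11 at day 8. It differed by 3.57 (SE 0.52, adjusted p = 0.0115), or 3.80 without that library (adjusted p = 0.0283). Tap1, a subunit of the transporter that carries peptides into the endoplasmic reticulum, had 8.58, 7.89 and 8.36 at day 14, against 5.27, 4.17 and 5.80 at day 8. Its difference of 3.19 (SE 0.58, adjusted p = 0.0333) was 3.55 without day 8 replicate 3 (adjusted p = 0.0470), but leaving out any other WGD- library ended the call (adjusted p up to 0.154). Psmb9, at chr17:34181987-34187764, overlaps the start of Tap1 on the other strand.

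Class I chains themselves were high and less certain. B2m, the invariant light chain, had 11.49, 10.68 and 11.04 at day 14, against 9.29, 7.88 and 8.82 at day 8, and differed by 2.41 (SE 0.46, adjusted p = 0.0365), but was not called without day 8 replicate 3 (2.49, adjusted p = 0.0744). H2-K1, a classical heavy chain, had 11.69, 10.74 and 11.29 at day 14, against 8.30, 7.47 and 9.33 at day 8. It was not called with all libraries (2.87, adjusted p = 0.0563), and was called without day 8 replicate 3 (3.36, adjusted p = 0.0483). H2-D1 differed by 2.26 (adjusted p = 0.104). Heavy chain genes are near-identical to each other and vary between strains, so their reads are assigned with less certainty. Among the immunoproteasome subunits Psmb8 was called (2.95, adjusted p = 0.0106) and Psmb10 was not (1.88, adjusted p = 0.134). The proteasome activator genes Psme1 and Psme2 were called at 1.48 (adjusted p = 0.00910) and 1.65 (adjusted p = 0.0109), while Psme3, a nuclear activator gene not tied to interferon, differed by -0.10 (adjusted p = 0.930). Psme2 and Psme2b are near-identical and may share reads.

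MHC class II was called only through its transactivator. Ciita, which controls the class II genes, had 5.20, 4.31 and 3.29 at day 14, against 2.22, 1.08 and 1.23 at day 8. It differed by 2.76 (SE 0.45, adjusted p = 0.0157), and by 2.62 without day 8 replicate 3 (adjusted p = 0.0536), which is no longer a call. The median of the 8 list members tested was 2.52. Of the 8, 4 had groups that did not overlap, higher at day 14, against 7.73% of all genes tested. Cd74, the invariant chain, had 9.96, 8.66 and 7.37 at day 14, against 6.83, 4.59 and 5.86 at day 8, and H2-Ab1 had 8.52, 8.07 and 5.65 against 5.96, 3.85 and 4.85. Day 14 replicate 3 was the low library for both, and its H2-Ab1 level was under that of day 8 replicate 1. Their differences of 2.90 (adjusted p = 0.246) and 2.53 (adjusted p = 0.378) were not called.

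T cell genes were low at day 8. The list mean was 0.42, 0.52 and 0.84 then, against 3.89, 3.33 and 1.73 at day 14. Of 12 list members tested, 5 entered only through the WGD- day 14 libraries, so the count of calls over this list is no support of its own. Those called were Cd8a, Cd3g, Cd3d, Cd3e and Zap70, of which Cd3e and Zap70 are among those 5, and 3 of the called, Cd8a, Cd3g and Zap70, were called without day 8 replicate 3. Cd8a, the co-receptor chain of cytotoxic T cells at chr6:71373427-71379173, had 5.53, 4.90 and 2.87 at day 14, against 0.14, 0.23 and 0.59 at day 8. In reads this was 546, 224 and 58 at day 14, against 1, 2 and 6 at day 8. The difference was 4.11 (SE 0.58, adjusted p = 0.00879), and 4.25 without that library (adjusted p = 0.0269). Cd3g, a chain of the T cell receptor complex, had 5.12, 4.43 and 2.36 at day 14, against 0, 0.33 and 0.59 at day 8, a difference of 3.67 (SE 0.56, adjusted p = 0.0115). Cd3d had 4.66, 3.53 and 1.67 at day 14, against 0, 0 and 0.50 at day 8, and differed by 3.12 (adjusted p = 0.0335), or by 3.29 without day 8 replicate 3 (adjusted p = 0.0646). Day 14 replicate 3 was the lowest day 14 library for all of them, and it was above every day 8 library.

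The helper T cell gene Cd4 and the regulatory T cell gene Foxp3 were not called. Cd4 had 1.96, 2.95 and 1.33 at day 14, against 1.33, 0.68 and 1.00 at day 8, a difference of 1.08 (adjusted p = 0.388). Foxp3, the master regulator of regulatory T cells, had 4.65, 4.42 and 4.49 at day 14, against 4.23, 3.83 and 4.66 at day 8, and its groups overlapped (0.28, adjusted p = 0.778). In the same day 8 libraries Cd3g was at 0, 0.33 and 0.59. Which cells held the Foxp3 reads, and whether the Foxp3 level follows regulatory T cell content, was not tested. Whether either differed less than Cd8a was not tested. The other genes of the list that holds Foxp3 are described with the checkpoint genes.

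Cytotoxic effector genes were likewise low at day 8, with a list mean of 0.68, 0.77 and 1.01. Of 10 tested, 5 were called higher, and 2 were called without day 8 replicate 3. Since 3 of the 10 passed the filter only through the WGD- day 14 libraries, 1 of them called (Klrd1), this count is no support of its own either. Gzmb, the protease that cytotoxic lymphocytes release into target cells, had 5.55, 5.06 and 3.86 at day 14, against 0.27, 0.12 and 1.33 at day 8. It differed by 4.25 (SE 0.50, adjusted p = 0.00352), and by 4.63 without day 8 replicate 3, which held 18 reads against 2 and 1 in the others of day 8 (adjusted p = 0.0183). Nkg7, a cytotoxic granule membrane protein, had 5.36, 3.87 and 2.80 at day 14, against 0.14, 0.23 and 0.88 at day 8, a difference of 3.60 (SE 0.56, adjusted p = 0.0115). Prf1, the pore-forming perforin, had 5.09, 3.43 and 2.45 at day 14, against 0.14, 0.23 and 1.12 at day 8. Its difference of 3.16 (adjusted p = 0.0319) was just short of a call without that library (3.47, adjusted p = 0.0507). Ifng itself had 4.29, 2.59 and 1.20 at day 14, against 0, 0.12 and 0.22 at day 8, and was not called (2.58, adjusted p = 0.0605). Klrb1c, a natural killer cell receptor, had overlapping groups and differed by 0.29 (adjusted p = 0.803). The receptor genes Klrk1 and Klrd1 of the same list were called higher, Klrd1 with the limit above. Klrb1c therefore does not stand for all such receptor genes. Of 8 granzyme genes tested, 2 were called, Gzmb and Gzmg, against 0.846% of all genes tested. Gzmg passed the filter only through the WGD- day 14 libraries, so its call is no support of its own. The close copies Gzmd, Gzme, Gzmf and Gzmg may share reads.

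Checkpoint genes were among the calls. All 13 members tested of the list, which holds regulatory T cell and checkpoint genes, had a higher mean at day 14, and 4 were called higher. As 4 of the 13 passed the filter only through the WGD- day 14 libraries, among them the called genes Pdcd1 and Tigit, these counts are no support of their own. Without day 8 replicate 3 a single member, Lag3, was called. Pdcd1, which encodes PD-1, the receptor of exhausted and activated T cells, had 5.24, 3.89 and 2.42 at day 14, against 0.86, 0 and 0.42 at day 8. The way it entered the test favoured a difference. Its difference of 3.43 (SE 0.57, adjusted p = 0.0169, or 3.42 and adjusted p = 0.0514 without that library) is given as a description. Cd274, which encodes its ligand PD-L1, had 6.28, 5.92 and 4.78 at day 14, against 2.82, 1.49 and 2.57 at day 8, a difference of 3.37 (SE 0.66, adjusted p = 0.0405). Without day 8 replicate 3 it was 3.50 (adjusted p = 0.0798). Lag3, an inhibitory receptor on T cells, had 5.21, 4.22 and 3.21 at day 14, against 1.82, 1.02 and 2.40 at day 8. It differed by 2.47 (SE 0.45, adjusted p = 0.0277) and was the member called again without that library (2.79, adjusted p = 0.0343). Tigit, another such receptor, differed by 2.35 (adjusted p = 0.0317), with the same limit as Pdcd1.

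**Figure D4:**
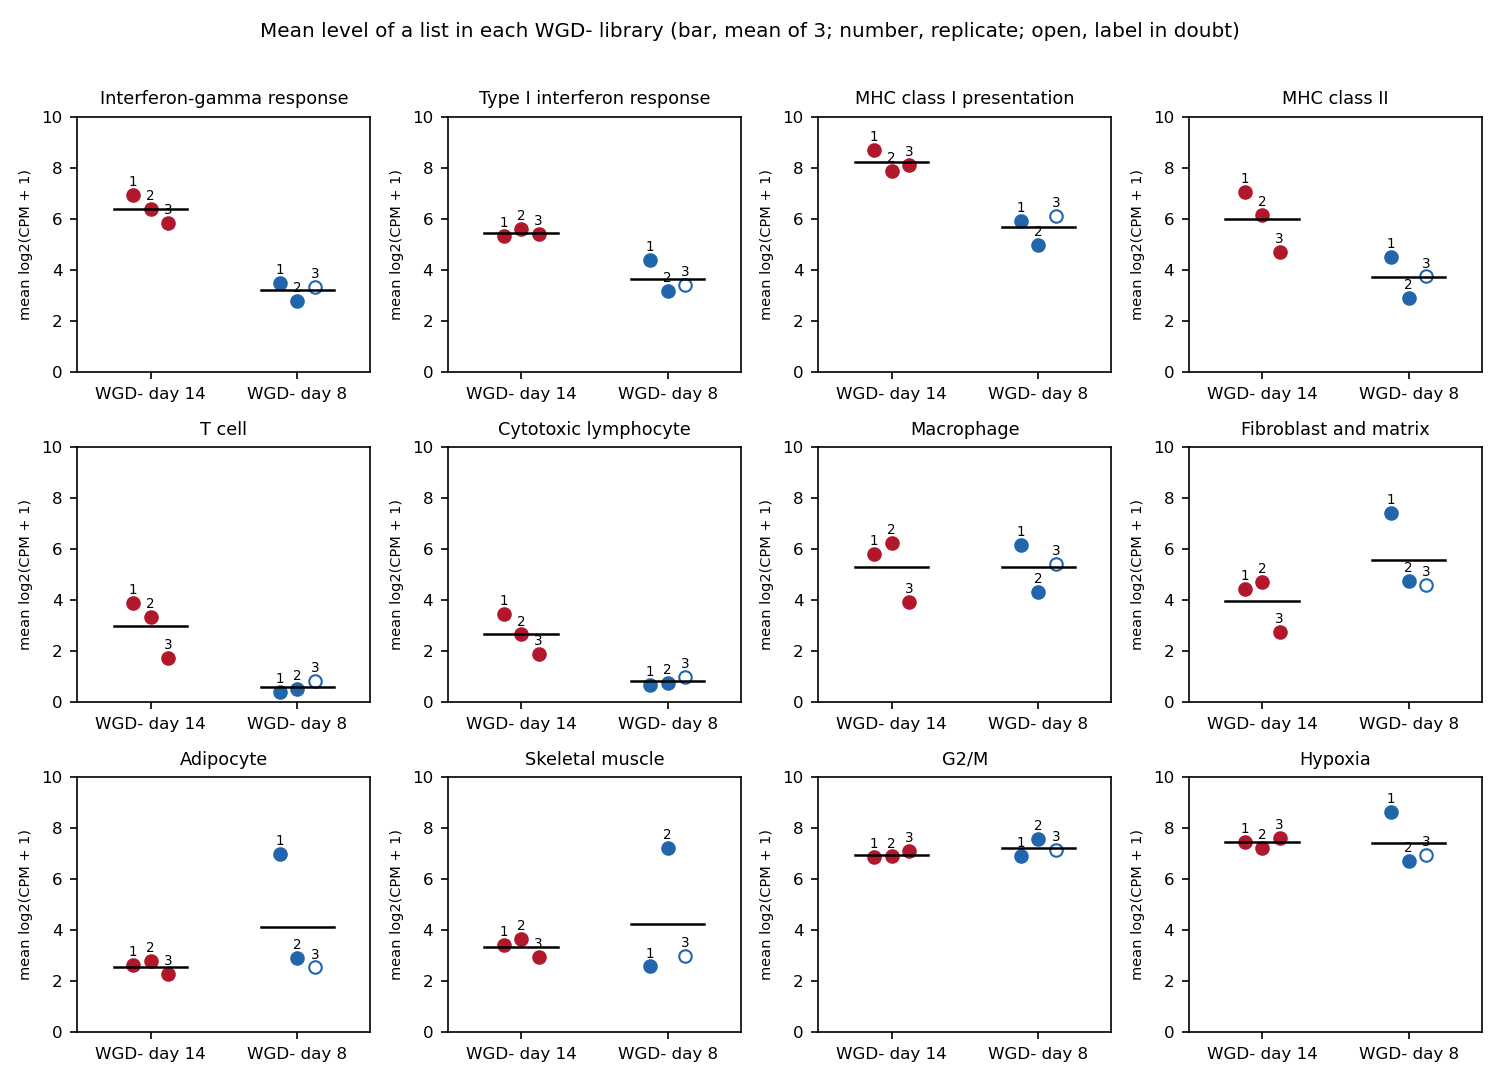
Mean level of 12 gene lists (log2(CPM + 1), mean over members in the table) in each WGD- library, day 14 left and day 8 right. Points are libraries, bars are means of 3, and the open point is the library whose label is in doubt. The interferon-gamma list separates the groups (5.84 to 6.96 at day 14, 2.79 to 3.49 at day 8), while the adipocyte list is set by day 8 replicate 1 at 6.98.

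Type I interferon response genes, which are driven by interferons alpha and beta and overlap in part with the interferon-gamma response, were higher by less. Of 20 tested, 6 were called higher, with a median difference of 1.62, and 2 were called without day 8 replicate 3, with a median of 1.56. The shares called higher over all genes tested were 0.824% and 0.482%. Ifi44 had 6.23, 6.09 and 6.11 at day 14, against 3.75, 2.66 and 3.24 at day 8. The day 14 SD was 0.08, and the difference was 2.93 (SE 0.38, adjusted p = 0.00621), or 2.94 without that library (adjusted p = 0.0258). Oas3, an enzyme that senses double-stranded RNA, had 6.00, 5.93 and 6.26 at day 14, against 4.05, 3.11 and 3.34 at day 8, and differed by 2.56 (SE 0.38, adjusted p = 0.0109). Zbp1, a sensor of Z-form nucleic acids, had 6.82, 6.41 and 6.14 at day 14, against 4.56, 3.04 and 3.54 at day 8. Its difference of 2.74 (adjusted p = 0.0353) was not called without day 8 replicate 3 (2.66, adjusted p = 0.0896). Unlike the T cell genes, day 14 replicate 3 was not the lowest library for Oas3. Classical members such as Ifit1 (1.71, adjusted p = 0.269), Mx1 (1.40, adjusted p = 0.135) and Irf7 (1.61, adjusted p = 0.299) were not called. For Irf7, day 8 replicate 1 stood at 6.79, above day 14 replicates 1 and 3 at 6.75 and 6.40.

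Other genes with large differences include some known from myeloid or activated cells, though which cells held these transcripts was not tested. Acod1, which makes the antimicrobial metabolite itaconate and is listed under its older symbol Irg1, had 5.86, 6.15 and 4.35 at day 14, against 1.33, 1.65 and 1.97 at day 8. It differed by 3.80 (SE 0.49, adjusted p = 0.00621), and by 3.96 without day 8 replicate 3. Clec7a, the beta-glucan receptor dectin-1, had 6.37, 7.43 and 5.56 at day 14, against 2.28, 2.98 and 2.90 at day 8. Its difference of 3.74 (SE 0.64, adjusted p = 0.0250) was just outside a call without that library (3.83, adjusted p = 0.0572). Ubd, a ubiquitin-like protein induced by interferon-gamma, had 5.34, 5.0 and 3.42 at day 14, against 0.86, 0.12 and 0.74 at day 8, and differed by 4.02 (SE 0.56, adjusted p = 0.00844). Single members were called in 4 further lists: Ly6c2 of the monocyte and neutrophil list (2.23, adjusted p = 0.0363), the chemokine Ccl4 (3.14, adjusted p = 0.0438), the cytokine Il1a (1.78, adjusted p = 0.0196) and the neuronal tubulin Tubb3 (1.77, adjusted p = 0.0473). Of these, Tubb3 was called without day 8 replicate 3 (2.07, adjusted p = 0.0405) and not when any other WGD- library was left out (adjusted p up to 0.188). The rest of each list was mixed. The list of Ly6c2 had 13 tested members (median 0.19, 6 lower) and that of Ccl4 17 (median -0.19, 10 lower). That of Il1a had 16 (median 0.13, 7 lower) and that of Tubb3 8 (median 0.29, 3 lower). Over all genes tested, 0.824% were called higher.

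Macrophage markers gave no call among 16 tested, and their median difference was 0.22. Of the 16, 11 had a higher day 14 mean and 5 a lower one, C1qa and Mrc1 being on the lower side. Apoe, on the higher side, differed by 0.39 (adjusted p = 0.947). C1qa, a complement subunit made by macrophages, had 7.86, 7.75 and 5.10 at day 14, against 8.36, 5.56 and 6.87 at day 8. Both groups spanned almost the same range. Mrc1, the mannose receptor, had 4.64, 5.74 and 3.62 at day 14, against 7.81, 4.92 and 7.52 at day 8, again with overlap.

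Few genes were lower at day 14. Trabd2b, a membrane metalloprotease that restrains Wnt signalling, had 4.77, 5.03 and 4.78 at day 14, against 6.12, 5.90 and 5.86 at day 8. The groups were more than 0.5 apart, and the difference was -1.11 (SE 0.17, adjusted p = 0.0115), or -1.16 without day 8 replicate 3 (adjusted p = 0.0304). Gpt2, a mitochondrial alanine aminotransferase, had 5.19, 4.97 and 5.41 at day 14, against 6.41, 5.97 and 5.86 at day 8, a difference of -0.89 (SE 0.17, adjusted p = 0.0359). Hdac7, a class II histone deacetylase, had 5.60, 5.37 and 5.12 at day 14, against 6.43, 6.19 and 6.13 at day 8. Its difference of -0.88 (adjusted p = 0.0442) was not called without that library (-0.94, adjusted p = 0.0660). Without it, Col4a1, Golm1 and Uhrf1bp1 were called lower beside Trabd2b and Gpt2. Col4a1, a basement membrane collagen, had 7.38, 7.12 and 6.95 at day 14, against 9.27, 8.77 and 7.69 at day 8, so that day 8 replicate 3 was the closest to day 14. It differed by -1.87 without that library (adjusted p = 0.0209) and by -1.43 with it (adjusted p = 0.102).

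Stromal lists had lower medians at day 14 and no calls in the full comparison. All 16 fibroblast and matrix genes had a lower day 14 mean, with a median difference of -2.0, and all 15 collagen genes tested did, with a median of -1.36. None was called, and 4 of the fibroblast genes and 5 of the collagen genes had groups that did not overlap. Over all genes tested, 5.96% had groups that did not overlap and were lower at day 14. Day 8 replicate 1, the library with a high adipocyte level, had a mean fibroblast list level of 7.41, against 4.60 to 4.75 in the other day 8 libraries and 2.77 to 4.70 at day 14. Its part in these medians was not tested. Col1a1, the main fibrillar collagen chain, had 8.28, 9.43 and 5.96 at day 14, against 11.11, 8.33 and 7.93 at day 8, and differed by -1.24 (adjusted p = 0.755). Lyve1, a marker of lymphatic vessels and of some macrophages, had 1.73, 1.79 and 1.13 at day 14, against 6.90, 2.68 and 4.08 at day 8. Its groups did not overlap, and its difference of -3.0 was not called (adjusted p = 0.137).

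Fat and muscle genes were decided by single libraries. Lpl, the lipoprotein lipase of adipocytes, had 5.83, 6.32 and 4.05 at day 14, against 8.92, 4.84 and 4.68 at day 8 (difference -0.75, adjusted p = 0.868). Acta1, skeletal muscle actin, had 4.97, 5.42 and 3.98 at day 14, against 3.92, 9.29 and 5.10 at day 8 (difference -1.31, adjusted p = 0.884). Only 1 day 8 library was high for each gene.

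No gene of the proliferation, hypoxia or p53 lists was called. Among 18 G2/M genes none was called, with a median difference of -0.28, and 17 had a lower day 14 mean. Mki67, the proliferation marker, had 8.22, 8.10 and 8.55 at day 14, against 8.44, 9.0 and 8.59 at day 8, a difference of -0.39 (adjusted p = 0.574). Among 15 hypoxia genes the median was 0.10 and none was called. The glucose transporter Slc2a1 had 10.37, 10.01 and 10.42 at day 14, against 11.08, 10.28 and 10.30 at day 8. Day 8 replicate 1 was the highest library. Among 14 p53 targets the median was 0.50 and 13 had a higher day 14 mean, none of them called. Bax, a pore-forming death effector, differed by 0.61 (adjusted p = 0.387). In all, 31 of 42 lists had no call, among them those on replication, glycolysis, oxidative phosphorylation, ribosome, heat shock, cholesterol synthesis and complement.

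In the WGD+ tumours of the same experiment no interferon-gamma gene was called higher at day 14. Between day 14 and day 8 in WGD+ tumours 1514 genes were called (11.2%), and the interferon-gamma list had a median difference of -0.66 with no member called. The test of the difference itself, the WGD- time difference minus the WGD+ time difference, called 461 genes (3.42%), of which 247 were higher in WGD- (1.83%) and 214 lower (1.59%). Without WGD- day 8 replicate 3 it called 187 (1.39%). Of the 114 genes called in WGD- tumours, 77 were called in this test and 58 without that library, and the WGD+ difference had the opposite sign for 83 of them. Both tests use the WGD- libraries, so the 77 are not independent of the 114. Leaving out single libraries moved the 461 to between 28 (without WGD- day 14 replicate 2) and 797 (without WGD- day 8 replicate 1).

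Gbp5 averaged 6.12 ± 0.79 at day 14 and 1.69 ± 0.54 at day 8 in WGD- tumours (SD, n = 3 each), and 2.52 ± 1.00 at day 14 and 4.03 ± 0.41 at day 8 in WGD+ tumours. The 2 time differences, 4.43 and -1.51, differed by 5.94 (adjusted p = 0.00745, or 0.0194 without day 8 replicate 3). The order of the forms turned over: at day 14 the mean of Gbp5 was higher in WGD- tumours and at day 8 it was lower in WGD- than in WGD+ tumours, which was not tested at either day alone. Ifi44 gave 4.80 (adjusted p = 0.00745), with a WGD+ day 14 minus day 8 difference of -1.88 that was called in that direction (adjusted p = 0.0172). Cd8a averaged 4.43 ± 1.39 at day 14 and 0.32 ± 0.24 at day 8 in WGD- tumours, and 1.10 ± 0.67 at day 14 and 1.11 ± 0.38 at day 8 in WGD+ tumours, and gave 4.12 (adjusted p = 0.0250). H2-Ea-ps, an MHC class II chain gene annotated as a pseudogene in the reference strain, gave the highest value, 5.95 (adjusted p = 0.0458), though its WGD- time difference of 4.75 was not called by itself (adjusted p = 0.0563).

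For MHC class I fewer differences between the forms were called than for the interferon lists. The interferon-gamma list had 14 of 18 tested genes called in the test of the difference and the type I list 10 of 20. MHC class II had 1 of 8. Of the 13 tested MHC class I genes 3 were called in it, Nlrc5 (4.04), Psmb9 (3.68) and Psmb8 (3.45), against 3.42% of all genes. Tap1 had 1.15 as its WGD+ time difference, and its difference of 2.05 from the WGD- value was not called (adjusted p = 0.179). H2-K1 (1.62, adjusted p = 0.294) and B2m (1.98, adjusted p = 0.103) were not called either.

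On the lower side, Scara5, a ferritin receptor gene, had 4.69, 4.27 and 4.74 at day 14, against 4.71, 5.36 and 5.87 at day 8 in WGD- tumours (difference -0.75), and a WGD+ difference of 2.35. The difference of these was -3.10 (adjusted p = 0.0231), or just outside a call without WGD- day 8 replicate 3 (adjusted p = 0.0516). Esyt3, an endoplasmic reticulum tether protein, gave -3.09 (adjusted p = 0.0185), and Ggt7 gave -3.10 (adjusted p = 0.0221). In each of these the larger of the 2 time differences was the WGD+ one, and none was called in WGD- tumours.

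**Figure D5:**
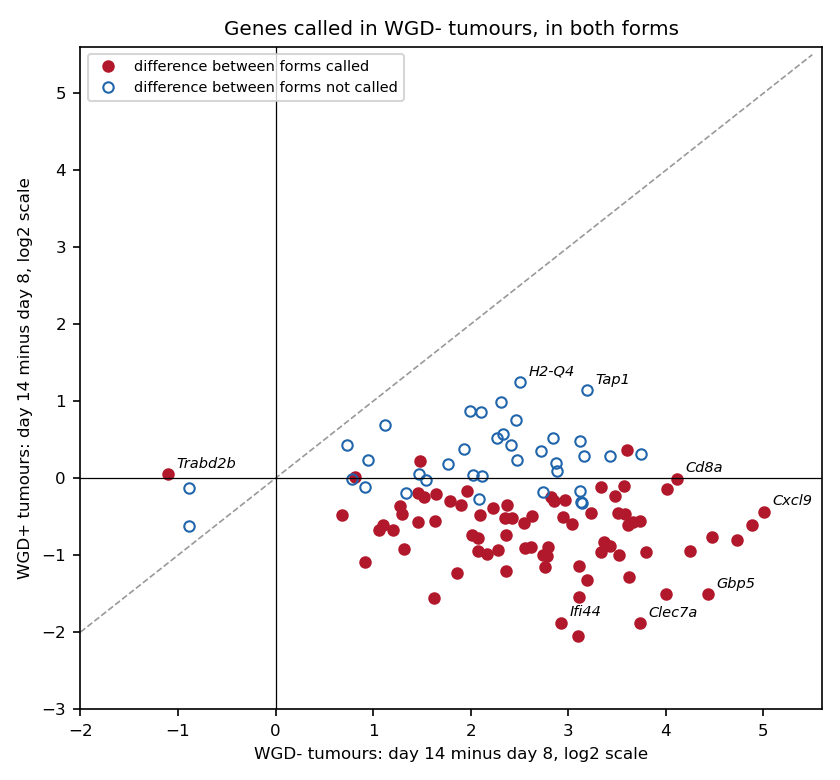
Day 14 minus day 8 difference (log2 scale) in WGD- tumours (x axis) and in WGD+ tumours (y axis) for the 114 genes called in WGD- tumours, filled where the difference between the forms was called (77) and open where it was not. The dashed line marks equal differences. Gbp5 lies at 4.43 in WGD- and -1.51 in WGD+, and Tap1 at 3.19 and 1.15.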

How the data were processed

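Tumour RNA of 12 libraries, 3 for each form and day, was sequenced from stranded mRNA libraries, per the labels' protocols. The deposited values are log2(CPM + 1), scaled by TMM, with STAR 2.5.1b, edgeR and mm10 named in the submitters' processing notes. Neither the counting tool nor the gene annotation is named in the labels or notes. The deposited values corresponded to whole reads within 0.1 read for 100% of values tested, at 5248955 to 12217113 assigned reads a library, so that 1 read was 0.0828 to 0.185 CPM. 27 symbols turned into dates, at most 0.223% of reads, were left out.

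Genes above 1 CPM in at least 3 libraries (13478 of 19176) were fitted with limma 3.58.1 in R 4.3.3 on the log2 values, with group means, a mean-variance trend and robust variance estimates over all 4 groups, and p-values adjusted by Benjamini-Hochberg. The difference between forms was a contrast in the same fit. The script was tested on simulated data. Alternatives were no filter, another pseudocount, quantile scaling, a replicate block, voom on the recovered reads, non-robust variance, WGD- libraries alone, and leaving out libraries. Replicate numbers did not pair the samples.

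Coordinates are from GENCODE M21 on mm10, matched by symbol (96.6%), and promoters from RefSeq. The members and lists were chosen with earlier results of these data known. Named genes were up to 12 called in each direction by size with groups that did not overlap and a higher mean of at least 3, up to 3 called members in each direction of each list or, with none, its 2 highest, up to 4 in each direction of the difference between forms, and the genotype-linked genes. Other genes named in the text were chosen after their values were seen. A gene of the lists is counted but not reported here.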

Additional observations from a re-analysis of the deposited data

Results flagged for a closer look

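The difference between day 14 and day 8 itself differed between WGD- and WGD+ tumours for 461 genes by the limma test of that difference (adjusted p under 0.05), and 31 of the named genes are among them. 22 of the 31 were called without WGD- day 8 replicate 3. Positive values mean a higher day 14 minus day 8 difference in WGD- tumours than in WGD+ tumours, on the log2 scale.

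Among guanylate-binding proteins, Gbp5 had 5.94, Gbp2b 5.54, Gbp4 5.49 and Gbp10 5.23. Other interferon-driven genes were Cxcl9 with 5.44, Ifi47 with 5.52, Ubd with 4.15, Ifi44 with 4.80, Zbp1 with 3.75 and Oas3 with 3.47. In antigen presentation and its checkpoint, Nlrc5 had 4.04, Psmb9 3.68, Ciita 3.92, H2-Ea-ps 5.95 and Cd274 4.19. Lymphocyte genes were Gzmb with 5.20, Cd8a with 4.12, Cd3g with 4.23 and Nkg7 with 3.24, and myeloid or cytokine genes were Clec7a with 5.62, Acod1 with 4.76, Ly6c2 with 2.62 and Il1a with 2.08.

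The 8 genes on the lower side were Trabd2b with -1.15, Bmp1 with -1.60, Slc2a1 with -2.11, Col18a1 with -2.28, Papln with -2.79, Esyt3 with -3.09, Scara5 with -3.10 and Ggt7 with -3.10. Ly6c2, Nkg7, Cd274, Zbp1, Il1a, Slc2a1, Scara5, Papln and Col18a1 were the 9 not called without WGD- day 8 replicate 3. With groups of 3, no single library was tested as standing apart.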

How the results depend on the processing

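The count of genes called between day 14 and day 8 in WGD- tumours, 114, was 64 with no filter, 45 with voom on the recovered reads, 52 with the WGD- libraries alone in the model and 28 with those alone and without day 8 replicate 3. Leaving out 1 WGD- library gave 14 to 228. It was 113 with another pseudocount, 142 with quantile scaling, 121 without robust variance and 91 with a replicate block. The same replicate numbers deviated together with correlations of 0.232, -0.317 and 0.163, so they were not taken as pairs. The count for the difference between forms, 461, was 235 with no filter, 289 with voom, 231 with the replicate block, and 28 to 797 with 1 library left out. Without WGD- day 8 replicates 1 and 3, an alternative chosen after seeing the data, the counts were 90 and 50. Of 33 named called genes, 9 were called with voom (Gbp4, Gbp2b, Gbp5, Trabd2b, Ifi44, Zbp1, Oas3, Nlrc5 and Psmb9) and 22 without day 8 replicate 3. The median difference of the complement and red blood cell lists changed sign under quantile scaling. The causes were not tested. For lymphocyte genes such as Cd8a, with 1, 2 and 6 reads in the day 8 libraries, depth limits the precision of the day 8 level.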
